A study of Mus musculus with 18 samples.

Results

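The collagen genes of these libraries were taken by symbol: every row of the deposited expression table named Col, a number, a and a second number, with a level of at least 1 TPM in any of the 18 libraries. TPM, the number of transcripts per 1000000 in a library, is a relative abundance corrected for transcript length, so levels of different genes can be compared on it. The row Mir6236 alone held 6.04% to 17.4% of all TPM, depending on the library, so a level also depends on the rest of its library. Of the 24493 gene symbols in the table, 44 had such a name and 30 of these reached the level; the other 14 did not. The cut-off fell among genes at the edge of detection: Col9a3, Col24a1 and Col4a6 stayed outside with highest values of 0.399, 0.731 and 0.874 TPM, while Col11a1, Col4a4 and Col20a1 came in with 1.03, 1.93 and 2.04 TPM. Of the 30, 22 had a mean of at least 1 TPM over all libraries and entered the tests; Col23a1, Col11a2, Col8a2, Col10a1, Col11a1, Col13a1, Col4a3 and Col4a4 did not and are given by their values only.

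The study sequenced RNA of cells sorted from tumors grown under the skin from 2 tumor lines of the mouse pancreas, 6419c5 and 6694c2, and compared wild-type (WT) cells with cells lacking Kdm3a, a demethylase of histone H3 lysine 9. There were 6 groups of 3 libraries: in each line a WT group and 2 knockout groups, KO1 and KO2, all of strain C57BL/6 and untreated. Each knockout group is 1 clone, so its 3 libraries describe that clone, and clone and knockout cannot be told apart within a group. The labels do not say whether the 3 libraries came from separate animals, so p-values measure only the spread between these libraries; they also do not say how the cells were marked for sorting, how the gene was disrupted, or what age the animals were.

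Collagens are proteins whose chains wind around each other into a triple helix, which needs a glycine in every triplet of residues. Fibrillar collagens (types I, III and V among others) form the cable-like fibers of connective tissue, network collagens (type IV) form the sheet of basement membranes under epithelia and around vessels, and other classes bead, coat or anchor these structures. In pancreatic cancer, fibroblasts of the stroma are known as the main makers of fibrillar collagen, while epithelial tumor cells are known to lay down basement membrane collagens.

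The coding sequences show the same repeat at very different lengths. The lines below give 21 codons from the start of the longest uninterrupted run of Gly-X-Y triplets in 6 genes that stand for the classes described here; capitals mark the glycine codon (GGN) that opens each triplet. They were read 5′ to 3′ from the GENCODE M21 transcript with the longest coding sequence.
Col1a1: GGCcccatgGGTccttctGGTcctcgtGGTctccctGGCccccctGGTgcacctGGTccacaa
Col3a1: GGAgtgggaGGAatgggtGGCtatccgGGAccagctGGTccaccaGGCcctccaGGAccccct
Col6a1: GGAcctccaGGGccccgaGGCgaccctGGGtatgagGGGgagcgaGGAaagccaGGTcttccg
Col7a1: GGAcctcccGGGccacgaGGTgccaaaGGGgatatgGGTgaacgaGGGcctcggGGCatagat
Col4a1: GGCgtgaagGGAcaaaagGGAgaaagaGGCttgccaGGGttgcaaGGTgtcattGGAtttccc
Col18a1: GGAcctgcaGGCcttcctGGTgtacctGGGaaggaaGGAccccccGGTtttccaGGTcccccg
Col1a1 and Col3a1, which encode chains of fibrillar collagens I and III, had runs of 338 and 344 triplets without a break. Col6a1, a chain of the beaded filaments, had 87, and Col7a1, the chain of anchoring fibrils, had 75. Col4a1 of the basement membrane network had at most 40 and Col18a1, a multiplexin whose end fragment is endostatin, at most 30, in 16 separate runs of 5 or more. On build GRCm38 these genes lie at chromosome 11, 94936224 to 94953042 (Col1a1), chromosome 1, 45311538 to 45349706 (Col3a1), chromosome 10, 76708792 to 76726168 (Col6a1), chromosome 9, 108953586 to 108984875 (Col7a1), chromosome 8, 11198423 to 11312826 (Col4a1) and chromosome 10, 77052178 to 77166548 (Col18a1).

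Several collagen genes are neighbors. Col4a1 and Col4a2 start head to head on chromosome 8, with the annotated ends overlapping by 22 bases, and Col4a3 and Col4a4 lie head to head on chromosome 1 with 71 bases between them. Col3a1 and Col5a2 end tail to tail 24.6 kb apart on chromosome 1, and Col6a2 and Col6a1 follow each other on the minus strand of chromosome 10 with 85.2 kb between them. The counting was not stated to use strand, so reads in an overlap could not be assigned here.

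The libraries differed in more than collagens. Depth is unknown, since TPM hold no read numbers; 12213 to 13590 genes per library had at least 1 TPM, and libraries of 1 group correlated at 0.932 to 0.989 across genes on the log scale. Kdm3a itself was lower but not absent in the knockouts. In 6419c5 the WT libraries held 38.2, 24.1 and 32.9 TPM, those of KO1 21.6, 24.6 and 21.6, and those of KO2 12.3, 18.8 and 13.5. In 6694c2 they held 39.9, 38.9 and 67.6 TPM in WT, 26.2, 26.4 and 29.8 in KO1 and 28.8, 30.2 and 25.2 in KO2. In 6419c5 the WT replicate 2 lay among the KO1 libraries, while in 6694c2 no knockout library reached WT. On the log2(TPM + 1) scale the mean of both clones differed from WT by -0.75 (SE 0.18, adjusted p = 0.0185) in 6419c5, from limma, and -0.75 (SE 0.18, adjusted p = 0.00910) in 6694c2. KO1 of 6419c5 alone did not pass, at -0.45 (SE 0.21, adjusted p = 0.299). The call over both clones of 6419c5 was lost without WT replicate 1 (-0.60) or WT replicate 3 (-0.71). Epithelial markers were high in all libraries (summed level of 10 genes 5408 to 12469 TPM), but markers of other cells were present too: 10 macrophage genes summed to 137 to 8208 TPM, 15 fibroblast genes to 44.3 to 363 TPM and 12 endothelial genes to 12.2 to 339.6 TPM. None of these genes was at 0 in every library of any group. Of other lists, pericyte and smooth muscle markers summed to 29.3 to 90.1 TPM, keratinocyte markers to 4.39 to 131, skeletal muscle markers to 21.9 to 118 and chondrocyte markers to 6.91 to 112.

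The fibroblast markers, a list with no collagen in it (among them Pdgfra, Dcn, Lum and Thy1), were not equal between groups. Their summed level in 6419c5 was 90.7, 97.6 and 81.9 TPM in WT, 163, 150.4 and 153 in KO1 and 95.6, 91.7 and 93.4 in KO2. In 6694c2 it was 58.3, 51.8 and 46.8 TPM in WT, 363, 186 and 186 in KO1 and 47.7, 44.3 and 163 in KO2. KO1 of both lines stood above its WT group without overlap, and in KO2 of 6694c2 replicate 3 stood apart from the other two. Other lists were above WT in KO1 without overlap too. Endothelial markers summed to 44.9 to 61.0 TPM in KO1 against 22.9 to 31.5 in WT of 6419c5, and to 43.4 to 339.6 against 12.2 to 16.9 in 6694c2. Pericyte and smooth muscle markers summed to 74.8 to 90.1 TPM in KO1 against 29.3 to 40.8 in WT of 6419c5, and to 65.2 to 80.3 against 38.6 to 48.9 in 6694c2. Skeletal muscle markers did so in 6419c5 only (45.1 to 118 against 29.5 to 40.1 TPM), and macrophage markers in 6694c2 only (3256 to 6187 against 137 to 1720.1 TPM). Some lists were below WT in KO1 without overlap. Chondrocyte markers were in 6419c5 (6.91 to 24.9 against 31.7 to 40.5 TPM) and in 6694c2 (46.3 to 52.4 against 103 to 112 TPM). Epithelial (5408 to 5962 against 6562 to 8308 TPM) and keratinocyte markers (54.6 to 56.9 against 111 to 131 TPM) were in 6694c2 only. In KO2 of 6419c5 macrophage markers were below WT without overlap (206 to 427 against 1222 to 7552 TPM). The highest WT value there was that of replicate 3, with 1222 and 1864 TPM in replicates 1 and 2. In KO2 of 6694c2 endothelial (20.8 to 34.4 TPM) and pericyte and smooth muscle markers (52.3 to 77.8 TPM) were above WT without overlap. The part of any of these in the collagen values of KO1 or KO2 was not tested. A second library, KO1 replicate 1 of 6694c2, stood apart by its endothelial markers, with 339.6 TPM against a mean of 43.9 in the other two of its group. In bulk RNA, fewer cells of a type and less RNA per cell cannot be told apart.

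Across the 30 genes, Col18a1 was the most abundant collagen with a mean of 309 TPM over the 18 libraries, followed by Col1a1 (183), Col6a1 (178), Col4a1 (165), Col3a1 (138) and Col1a2 (136). These levels are per transcript length. The order was not stable between libraries: Col1a1 ranged from 33.1 to 388 TPM, while Col18a1 ranged from 186 to 377 and Col4a1 from 114 to 207. All 30 genes summed to 1077 to 2012 TPM per library. Fibrillar collagens summed to 454, 620.5 and 312 TPM in 6419c5 WT, 1002, 996 and 1031 in its KO1 and 296, 324 and 317 in its KO2. In 6694c2 they summed to 329.7, 236 and 281 TPM in WT, 1005, 720.2 and 674 in KO1 and 204, 193 and 907 in KO2. The type IV chains of the basement membrane network kept within 178 to 311 TPM over all 18 libraries.

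**Figure D1:**
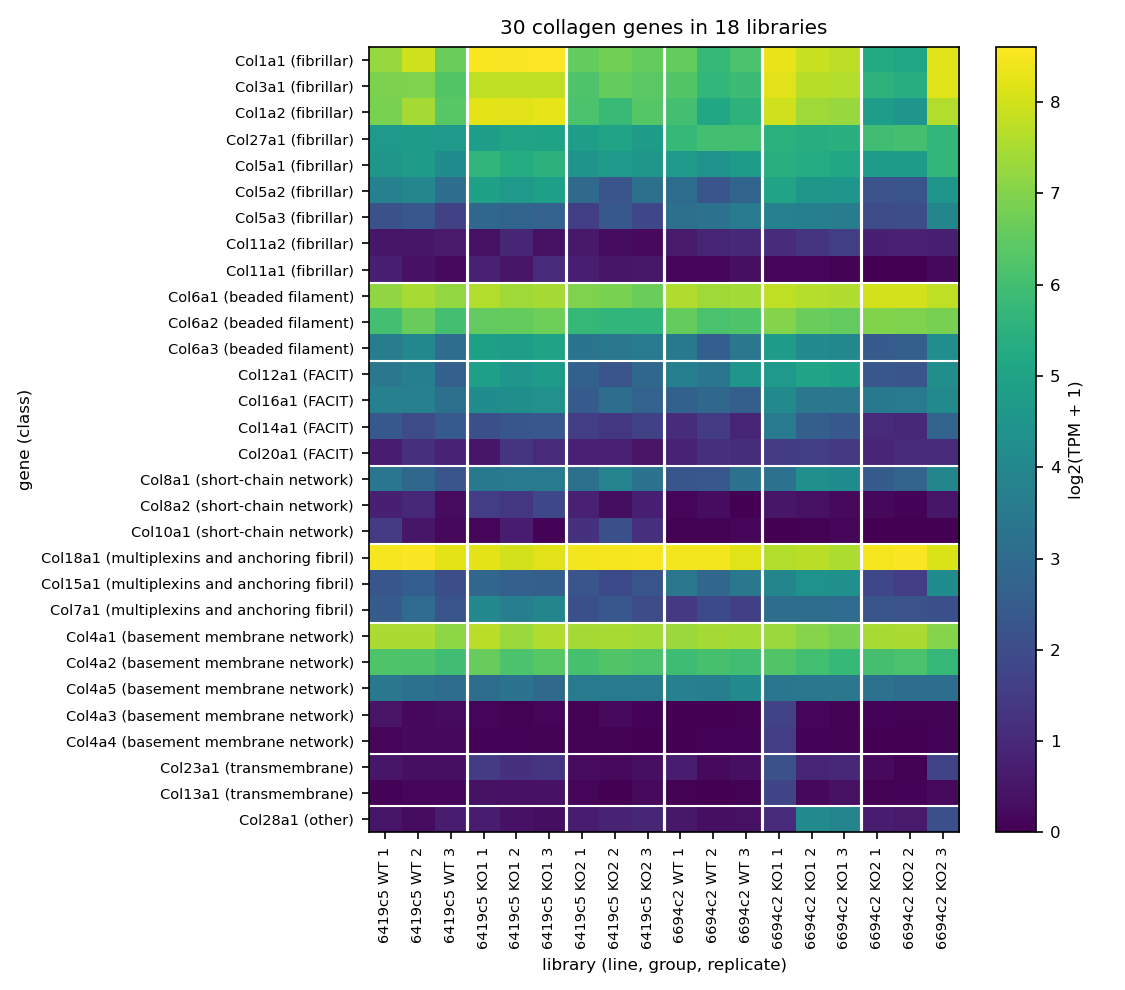
Level of the 30 collagen genes (rows, by class) in the 18 libraries (columns, by line, group and replicate), colored by log2(TPM + 1). Col1a1, Col3a1 and Col1a2 are brighter in KO1 of each line than in its WT, and in KO2 replicate 3 of 6694c2 than in the rest of that group. Col18a1, Col4a1, Col4a2, Col6a1 and Col6a2 vary less between libraries.

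Changes were tested with limma on log2(TPM + 1) over all 13422 genes that averaged 1 TPM or more, and a gene was called at a Benjamini-Hochberg adjusted p under 0.05 over all of them. With both clones of a line averaged against WT, none of the 22 tested collagens was called in 6419c5 in either direction, where 3.97% of all genes were called higher and 3.4% lower; 3 collagens had an unadjusted p under 0.05 and the smallest adjusted p was 0.117 (Col5a1). In 6694c2 the same comparison called 7 collagens higher and 2 lower, against 14.7% and 5.79% of all genes. The median collagen difference was 0.17 in 6419c5 (all genes 0.01) and 0.53 in 6694c2 (all genes 0.15). Markers of other cells moved in the same comparison: in 6694c2, 8 of 13 tested fibroblast and 4 of 10 endothelial markers were called higher and none lower, and 5 of 10 epithelial markers lower; in 6419c5, 1 fibroblast marker was called higher and 6 of 10 epithelial markers lower. Their part in the collagen counts was not tested.

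The clones of a line did not move alike, so each was also set against its WT group. In 6419c5, KO1 had 2 collagens called higher and none lower (all genes 3.14% and 1.65%), with a median of 0.52 against 0.05 for all genes. KO2 of 6419c5 had none higher and 3 lower (all genes 7.97% and 11%), with a median of -0.20 against 0.00. In 6694c2, KO1 had 11 higher and 3 lower (all genes 14.7% and 7.01%), with a median of 0.95 against 0.11. KO2 of 6694c2 had 3 higher and 1 lower (all genes 10.6% and 3.94%), with a median of 0.03 against 0.18. The 2 comparisons of a line share its WT libraries.

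Single libraries decided several of these counts. The share of all genes called in fits without a library is not given here, so the counts of such fits cannot be set against it. Without KO2 replicate 3 of 6694c2, a library that also enters the shared estimate of the spread, KO1 of 6419c5 had 9 calls and KO2 of 6694c2 had 8, and the mean of both clones in 6419c5 had 1; it had 1 without 6419c5 WT replicate 2. The 9 calls of 6694c2 became 3 without WT replicate 2. The 14 calls of its KO1 became 8 without WT replicate 2, 8 without KO1 replicate 1 and 9 without KO1 replicate 2. KO1 of 6419c5 kept 1 call without WT replicate 3, and KO2 of 6419c5 kept 1 without WT replicate 2 or without its own replicate 1 or 3. The split of calls over all genes also moved with the scaling. Of all genes called in 6694c2, 71.7% were higher on the deposited scale, 36.3% after median-of-ratios scaling and 52.7% after removing the 20 most abundant genes. For KO1 of 6694c2 these shares were 67.7%, 41.6% and 51.9%, for its KO2 72.9%, 35.7% and 53.9%, and for KO1 of 6419c5 65.6%, 52.4% and 53.6%. The median of all genes in 6694c2 moved from 0.15 to -0.03 and 0.05 with these scalings, that of its KO1 from 0.11 to -0.04 with the first and that of its KO2 from 0.18 to -0.02; the 7 higher and 2 lower collagens became 3 higher and 4 lower with the first scaling, and 3 higher and 3 lower with the second.

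**Figure D2:**
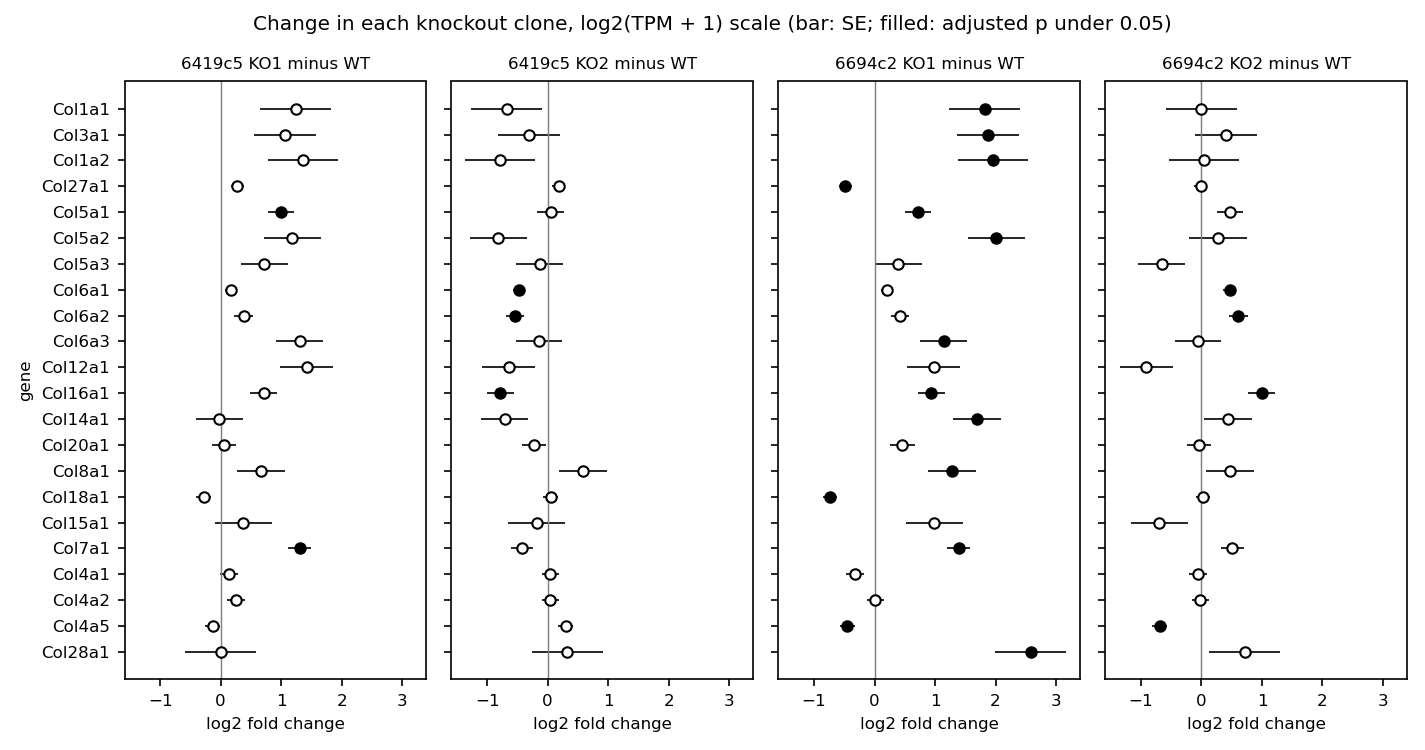
Difference of each knockout clone from its WT group for the 22 tested collagens (rows), on the log2(TPM + 1) scale; bars are standard errors and filled points have an adjusted p under 0.05. KO1 of 6694c2 has 14 filled points, KO2 of 6419c5 has 3 and all of these lie below 0.

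Summed fibrillar levels were higher in every KO1 library than in any WT library of its line. Col1a1 encodes the main chain of collagen I, the most common fiber protein of connective tissue. WT libraries of 6419c5 held 156, 252 and 101.2 TPM, KO1 libraries 363, 378 and 388, and KO2 libraries 93.8, 109 and 93.4. Those of 6694c2 held 95.1, 53.7 and 71.4 TPM in WT, 329, 237 and 214 in KO1 and 37.1, 33.1 and 288 in KO2. All 3 KO1 libraries of each line lay above all WT libraries of that line, and KO2 replicate 3 of 6694c2 lay among the KO1 libraries of its line while its other two lay below WT. KO1 of 6694c2 was higher than WT by 1.82 (SE 0.59, adjusted p = 0.0382). The difference in KO1 of 6419c5, 1.24 (SE 0.59, adjusted p = 0.317), did not pass. In KO2 of 6694c2 it was -0.01 with all libraries and -1.01 without replicate 3 (adjusted p = 0.0469), so that library decided the value.

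Col3a1 encodes the chain of collagen III, which is found beside collagen I in extensible tissue and early scars. Its level in 6419c5 was 118, 123.1 and 77.9 TPM in WT, 221, 217 and 219 in KO1 and 73.5, 94.5 and 84.2 in KO2. For 6694c2 it was 77.3, 50.4 and 58.4 TPM in WT, 294, 204 and 193 in KO1 and 46.0, 39.7 and 289 in KO2. As for Col1a1, KO1 lay above WT in both lines with no overlap. It rose in KO1 of 6694c2 by 1.87 (SE 0.51, adjusted p = 0.0183); in KO1 of 6419c5 the difference was 1.06 (SE 0.51, adjusted p = 0.330). Col1a2, the partner chain of collagen I, rose in KO1 of 6694c2 by 1.95 (SE 0.58, adjusted p = 0.0261), from a group mean of 48.7 ± 15.3 (SD, n = 3) to 189.9 ± 52.5 TPM. Its difference in KO1 of 6419c5 was 1.36 (SE 0.58, adjusted p = 0.249). The calls of Col1a1 and Col1a2 in KO1 of 6694c2 were lost without WT replicate 2 or 3 or any 1 KO1 library, over a range of 1.62 to 2.03 for Col1a1 and 1.73 to 2.18 for Col1a2. The call of Col3a1 was lost without WT replicate 2 (1.73) or KO1 replicate 1 (1.68).

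Collagen V chains join collagen I fibrils and are known to start and limit their growth. Col5a1 was called in both KO1 clones. It rose by 1.003 (SE 0.22, adjusted p = 0.0129) in KO1 of 6419c5, from 21.9 ± 4.45 to 44.5 ± 5.16 TPM, and by 0.71 (SE 0.22, adjusted p = 0.0298) in KO1 of 6694c2, from 22.7 ± 2.27 to 38.0 ± 3.83 TPM. Averaged over the clones of 6694c2 it also passed, at 0.59 (SE 0.19, adjusted p = 0.0376), but not after either rescaling (0.40 and 0.49), and not without any 1 WT library of 6694c2 or KO1 replicate 1 or 2 (range over all 18 fits without 1 library 0.43 to 0.68). Col5a2 rose in KO1 of 6694c2 by 2.01 (SE 0.47, adjusted p = 0.00777). The call of Col5a1 in 6419c5 was lost without WT replicate 3 (0.85), and that in KO1 of 6694c2 without WT replicate 1 or 2 or KO1 replicate 1 or 2 (range 0.63 to 0.79).

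Col5a3 and Col27a1, both fibrillar, differed between the WT tumors of the lines. For Col5a3, the WT libraries of 6419c5 were at 3.38, 4.05 and 2.27 TPM, with KO1 at 6.26, 5.85 and 5.55 and KO2 at 2.02, 4.16 and 2.54. The WT libraries of 6694c2 were at 7.99, 8.43 and 10.6 TPM, with KO1 at 12.9, 12.2 and 11.1 and KO2 at 2.96, 3.11 and 14.4. WT libraries of 6694c2 were all above those of 6419c5, by 1.26 (SE 0.39, adjusted p = 0.0154). Col27a1 encodes a fibrillar collagen with a shorter main helix run (217 triplets). Levels in 6419c5 were 24.1, 25.6 and 23.8 TPM in WT, 27.5, 31.4 and 30.9 in KO1 and 26.8, 31.6 and 25.6 in KO2. Levels in 6694c2 were 52.8, 64.2 and 62.6 TPM in WT, 44.1, 40.5 and 42.7 in KO1 and 61.9, 65.8 and 50.8 in KO2. Every library of 6694c2 was above every library of 6419c5, and the WT groups differed by 1.25 (SE 0.11, adjusted p = 3.91e-07). Within 6694c2, Col27a1 fell in KO1 by 0.48 (SE 0.11, adjusted p = 0.00614), and the 3 libraries of KO1 lay below all WT libraries. The cartilage fibril chains Col11a1 and Col11a2 stayed at the edge of detection, with highest values of 1.03 and 2.06 TPM. The line difference of Col5a3 lost its call without WT replicate 3 of 6419c5 (1.08).

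**Figure D3:**
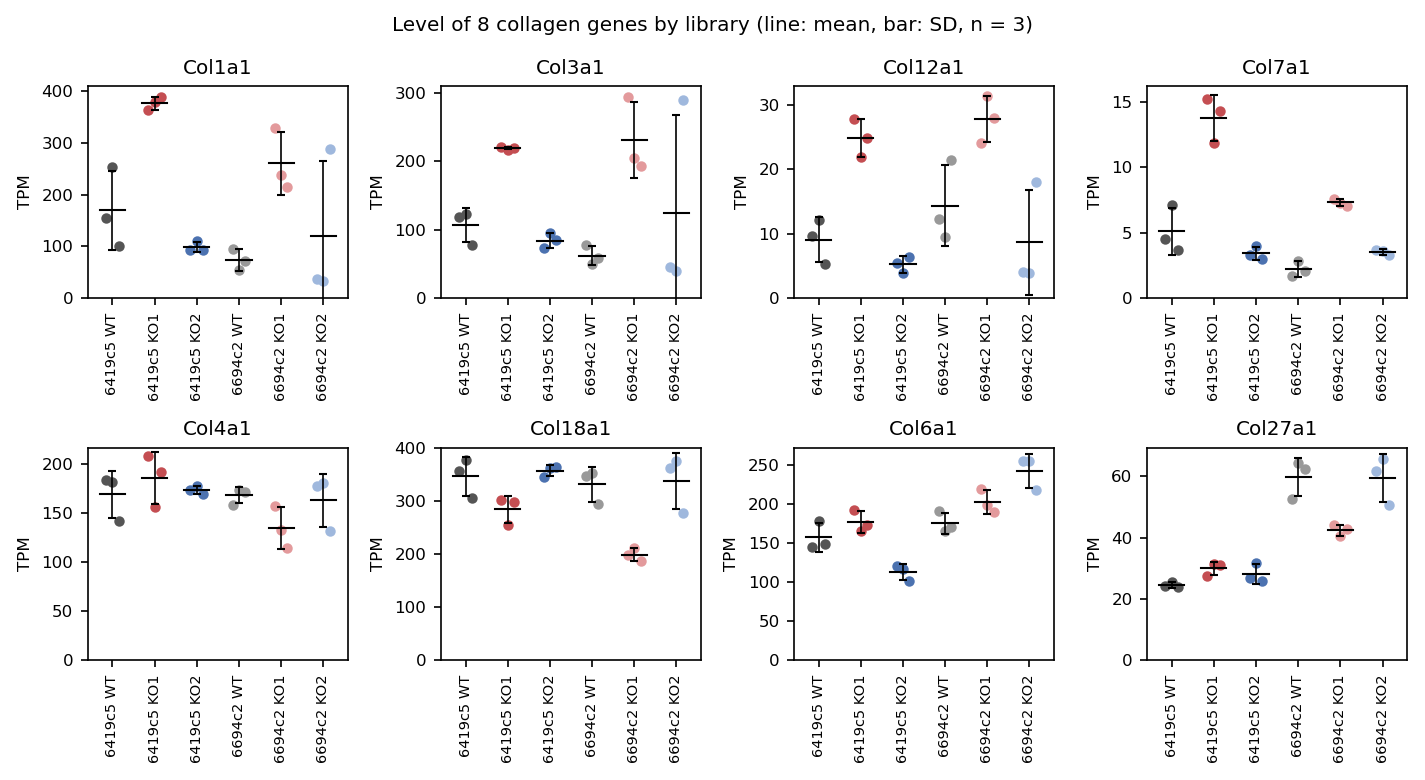
TPM of 8 collagens in each library (points, by group of 3); the horizontal line is the mean and the bar is the SD, cut at 0 where it would go below. Col1a1, Col3a1, Col12a1 and Col7a1 are high in KO1 of both lines, Col18a1 and Col27a1 are low in KO1 of 6694c2 relative to its WT, and Col6a1 is lowest in KO2 of 6419c5.

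FACIT collagens do not form fibers alone but bind to their surface. Col12a1, with the highest mean of the class, is found on collagen I fibrils of dense tissue. Tumors of 6419c5 held 9.68, 12.2 and 5.28 TPM in WT, 27.8, 22.0 and 24.9 in KO1 and 5.42, 3.87 and 6.46 in KO2. Tumors of 6694c2 held 12.3, 9.44 and 21.4 TPM in WT, 24.2, 31.4 and 27.9 in KO1 and 3.99, 3.87 and 18.1 in KO2. KO1 was above WT without overlap in both lines, and KO2 replicates 1 and 2 of 6694c2 were below WT. No contrast with WT passed for Col12a1: KO1 gave 1.43 (SE 0.44, adjusted p = 0.0871) in 6419c5 and 0.98 (SE 0.44, adjusted p = 0.130) in 6694c2. In KO2 of 6694c2 it gave -0.91 with all libraries and -1.56 without replicate 3 (adjusted p = 0.00566).

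Col16a1, another FACIT chain, was higher in both clones of 6694c2. In 6419c5 the WT libraries held 12.3, 12.5 and 7.93 TPM, those of KO1 17.0, 18.3 and 19.3, and those of KO2 4.71, 7.56 and 5.47. In 6694c2 they held 5.31, 6.46 and 5.02 TPM in WT, 16.1, 9.61 and 9.88 in KO1 and 10.2, 10.99 and 15.9 in KO2. In 6694c2 both clones lay above WT without overlap, and in 6419c5 KO1 lay above and KO2 below WT. It rose by 0.97 (SE 0.19, adjusted p = 0.00286) over the clones of 6694c2, a call kept in all 18 fits that left out 1 library, and fell in KO2 of 6419c5 by 0.78 (SE 0.22, adjusted p = 0.0246). The latter call was lost without WT replicate 1 or 2 or KO2 replicate 1 or 3 (range -0.98 to -0.65).

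Col14a1 encodes a FACIT chain that coats collagen I fibrils. WT libraries of 6419c5 held 4.13, 3.004 and 4.38 TPM, KO1 libraries 3.24, 3.90 and 4.07, and KO2 libraries 1.94, 1.63 and 2.26. Those of 6694c2 held 1.13, 1.82 and 0.833 TPM in WT, 10.7, 5.13 and 4.19 in KO1 and 1.06, 0.978 and 5.71 in KO2. In 6694c2 the KO1 libraries were all above WT, and of KO2 only replicate 3 was. It rose by 1.69 (SE 0.39, adjusted p = 0.00706) in KO1, and the mean of both clones, 1.07 (SE 0.34, adjusted p = 0.0388), lost its call without any 1 WT library, without KO1 replicate 1 and under either rescaling (0.94 and 1.05). Its WT level was lower in 6694c2 than in 6419c5 by 1.11 (SE 0.39, adjusted p = 0.0313). Col20a1 stayed between 0.371 and 2.04 TPM and was called in no contrast. The line difference of Col14a1 lost its call without WT replicate 1 or 3 of either line.

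Collagen VI chains build beaded filaments that link cells to the matrix. Col6a1 and Col6a2 were abundant in every library. For Col6a1, its level in 6419c5 was 145, 179 and 148 TPM in WT, 193, 165 and 174 in KO1 and 121, 117 and 101.2 in KO2. For 6694c2 it was 191, 165 and 171 TPM in WT, 219.8, 199 and 189.7 in KO1 and 255, 256 and 218 in KO2. The KO2 libraries of 6419c5 were the lowest of all 18, and those of 6694c2 KO2 all lay above WT of that line. Col6a1 fell in KO2 of 6419c5 by 0.47 (SE 0.10, adjusted p = 0.00595) and rose in KO2 of 6694c2 by 0.47 (SE 0.10, adjusted p = 0.00804).

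Col6a2 did likewise. The WT libraries of 6419c5 were at 65.0, 95.4 and 64.5 TPM, with KO1 at 92.1, 94.1 and 103 and KO2 at 52.3, 50.2 and 49.3. The WT libraries of 6694c2 were at 93.3, 69.1 and 74.5 TPM, with KO1 at 128, 99.0 and 91.9 and KO2 at 125, 121 and 114. It fell in KO2 of 6419c5 by 0.53 (SE 0.15, adjusted p = 0.0234) and rose in KO2 of 6694c2 by 0.61 (SE 0.15, adjusted p = 0.0142), a call lost without WT replicate 2 or KO2 replicate 1. Over both clones of 6694c2 Col6a1 rose by 0.34 (SE 0.09, adjusted p = 0.0174) and Col6a2 by 0.52 (SE 0.13, adjusted p = 0.0126); both calls were lost without WT replicate 2 (0.29 and 0.43), and after median-of-ratios scaling the values were 0.13 and 0.32. The rise in KO2 of 6694c2 also lost its call under that scaling (0.24 for Col6a1, 0.38 for Col6a2), and the fall of Col6a2 in KO2 of 6419c5 was -0.35 without WT replicate 2, a call lost there and without any 1 KO2 library. Col6a3, the longest of the 3 chains, followed the order of the collagen I chains instead, with KO1 highest in each line. Its means were 11.3 ± 3.89, 28.3 ± 1.71 and 9.75 ± 0.720 TPM in WT, KO1 and KO2 of 6419c5 and 8.26 ± 2.93, 19.1 ± 5.65 and 9.03 ± 7.28 TPM in those of 6694c2. It rose in KO1 of 6694c2 by 1.14 (SE 0.39, adjusted p = 0.0473), a call kept in 5 of the 18 fits without 1 library; KO1 of 6419c5 gave 1.30 (SE 0.39, adjusted p = 0.0743).

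The abundant basement membrane chains passed no test against WT. Col4a1 and Col4a2, which encode the chains of the common type IV network, were called in no contrast with WT on the deposited scale. For Col4a1, levels in 6419c5 were 183, 181 and 141 TPM in WT, 207, 156 and 192 in KO1 and 173, 177 and 169 in KO2. Levels in 6694c2 were 158, 173 and 171 TPM in WT, 157, 132 and 114 in KO1 and 177, 179.8 and 131 in KO2. All groups overlapped with the WT group of their line except KO1 of 6694c2, whose libraries all lay below WT; there the difference was -0.33 (SE 0.15, adjusted p = 0.128), and it was -0.50 after median-of-ratios scaling (adjusted p = 0.0274).

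For Col4a2, tumors of 6419c5 held 74.2, 72.3 and 60.9 TPM in WT, 96.3, 70.4 and 82.1 in KO1 and 68.3, 75.4 and 69.4 in KO2. Tumors of 6694c2 held 60.6, 66.8 and 61.6 TPM in WT, 75.9, 62.5 and 53.8 in KO1 and 66.1, 69.7 and 51.6 in KO2. The groups overlapped with WT in each line. Differences from WT ran from -0.02 in KO2 of 6694c2 to 0.25 in KO1 of 6419c5. Col4a5, on the X chromosome, encodes a chain of a second type IV network found in kidney, skin and lung basement membranes. In 6419c5 the WT libraries held 9.88, 8.18 and 7.24 TPM, those of KO1 7.15, 8.67 and 6.94, and those of KO2 10.4, 10.8 and 10.3. In 6694c2 they held 12.5, 11.9 and 16.3 TPM in WT, 9.28, 9.80 and 9.68 in KO1 and 8.42, 7.68 and 7.72 in KO2. In 6694c2 all 6 knockout libraries were below all WT libraries. It fell by 0.57 over both clones (SE 0.11, adjusted p = 0.00238), by 0.45 in KO1 and by 0.69 in KO2 (adjusted p = 0.00205). The value in KO1 was -0.32 without WT replicate 3, where the call was lost, as it was without KO1 replicate 1 or 3. Col4a5 was higher in WT 6694c2 than in WT 6419c5 by 0.62 (SE 0.13, adjusted p = 0.00109). Col4a3 and Col4a4, partners of Col4a5, passed 1 TPM only in KO1 replicate 1 of 6694c2 (2.41 and 1.93 TPM), the library with the high endothelial markers.

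Multiplexins sit beside basement membranes, and collagen VII anchors the membrane to the tissue below. For Col18a1, WT libraries of 6419c5 held 357, 377 and 305 TPM, KO1 libraries 301, 255 and 297, and KO2 libraries 345, 361 and 363. Those of 6694c2 held 346, 353 and 293 TPM in WT, 197, 210.3 and 186 in KO1 and 361, 374 and 276 in KO2. KO1 of 6694c2 had the 3 lowest libraries of all 18. Col18a1 fell there by 0.74 (SE 0.12, adjusted p = 5.31e-04), from 331 ± 32.8 to 198 ± 12.1 TPM, and did not pass in the other 3 clones (-0.28 in KO1 and 0.05 in KO2 of 6419c5, 0.02 in KO2 of 6694c2). Over both clones of 6694c2 it fell by 0.36 (adjusted p = 0.0230), a call lost without WT replicate 1 (-0.32) or 2 (-0.31).

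Col7a1 was called with the smallest adjusted p of the collagens in KO1 of both lines. Its level in 6419c5 was 4.50, 7.14 and 3.71 TPM in WT, 15.2, 11.8 and 14.3 in KO1 and 3.31, 3.995 and 3.03 in KO2. For 6694c2 it was 1.67, 2.86 and 2.09 TPM in WT, 7.55, 7.30 and 7.07 in KO1 and 3.70, 3.59 and 3.29 in KO2. KO1 was above every WT and KO2 library of its line in both lines. Col7a1 rose by 1.30 (SE 0.19, adjusted p = 5.04e-04) in KO1 of 6419c5 and by 1.39 (SE 0.19, adjusted p = 1.23e-04) in KO1 of 6694c2, and both calls held in all 18 fits without 1 library. In KO2 the differences were -0.43 (SE 0.19, adjusted p = 0.129) in 6419c5 and 0.51 (SE 0.19, adjusted p = 0.0795) in 6694c2, and over both clones of 6694c2 the rise was 0.95 (SE 0.16, adjusted p = 7.93e-04). WT 6694c2 was lower than WT 6419c5 by 0.91 (adjusted p = 0.00101). Col15a1, the other multiplexin, was high in KO1 of 6694c2 (14.6, 19.8 and 19.0 TPM) and in KO2 replicate 3 (17.3 TPM), against 9.59, 6.24 and 9.77 TPM in WT and 2.52 and 1.98 TPM in the other KO2 libraries. It was called in no contrast with WT; without replicate 3 its difference in KO2 was -1.53 (adjusted p = 2.52e-04) in place of -0.70.

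The remaining classes were low. Col8a1, a short-chain network collagen known from vessel walls and the cornea, had the highest mean among them. The WT libraries of 6419c5 were at 9.33, 6.56 and 3.83 TPM, with KO1 at 10.2, 10.8 and 10.4 and KO2 at 8.08, 13.4 and 8.61. The WT libraries of 6694c2 were at 3.90, 4.04 and 8.40 TPM, with KO1 at 8.21, 19.0 and 17.1 and KO2 at 4.73, 6.02 and 14.4. It rose in KO1 of 6694c2 by 1.28 (SE 0.40, adjusted p = 0.0326), although replicate 1 was no higher than the highest WT library, and the call was lost without WT replicate 1 or 2 or KO1 replicate 2 or 3. Col8a2 was highest in KO1 of 6419c5 (1.93, 1.62 and 2.62 TPM) and was at most 0.452 TPM in 6694c2. Col10a1, known from growth plate cartilage, was above 1 TPM only in 6419c5, in WT replicate 1 (1.79 TPM) and in the 3 KO2 libraries (1.35, 3.33 and 1.21 TPM).

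Among transmembrane collagens, Col23a1 held 0.428, 0.267 and 0.282 TPM in WT of 6419c5, 1.87, 1.33 and 1.51 in KO1 and 0.199, 0.152 and 0.270 in KO2, and 0.584, 0.172 and 0.290 TPM in WT of 6694c2, 3.43, 0.844 and 0.928 in KO1 and 0.175, 0.0263 and 2.41 in KO2. It was above 1 TPM only in KO1 of 6419c5, KO1 replicate 1 and KO2 replicate 3 of 6694c2. Col13a1 passed 1 TPM only in KO1 replicate 1 of 6694c2 (2.501 TPM). Col28a1 encodes a collagen with von Willebrand factor A domains. Levels in 6419c5 were 0.394, 0.223 and 0.609 TPM in WT, 0.622, 0.343 and 0.259 in KO1 and 0.614, 0.759 and 0.909 in KO2. Levels in 6694c2 were 0.458, 0.270 and 0.319 TPM in WT, 1.07, 16.0 and 13.8 in KO1 and 0.629, 0.537 and 3.29 in KO2. Only KO1 replicates 2 and 3 and KO2 replicate 3 of 6694c2 stood clear of the rest, and KO1 replicate 1 did not. The rise over both clones of 6694c2, 1.65 (SE 0.51, adjusted p = 0.0350), and that in KO1, 2.58 (SE 0.59, adjusted p = 0.00668), rest on a group whose libraries differed widely; the former was lost without any 1 WT library, KO1 replicate 2 or 3 or KO2 replicate 3 (range 1.38 to 2.13), and with a pseudocount of 0.1 it was 2.62.

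How collagens moved with the cell type markers was measured within groups. For each library a fibroblast index was computed as the mean log2(TPM + 1) of the 15 fibroblast markers, and the slope of each gene on it was fitted beside the 6 group means. The index was 1.85, 1.70 and 1.65 in WT, 4.18, 3.36 and 3.32 in KO1 and 1.64, 1.55 and 3.15 in KO2 of 6694c2, and 2.31, 2.30 and 2.32 in WT, 2.91, 2.99 and 2.89 in KO1 and 2.15, 2.07 and 2.13 in KO2 of 6419c5. Within a group it spread widely only in KO1 and KO2 of 6694c2, so the slopes describe mostly those libraries.

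On the fibroblast index 6 collagens had a positive slope and none a negative one, against 0.745% and 0.082% of all genes. They were Col1a2 (1.65, SE 0.23, adjusted p = 0.00344), Col1a1 (1.63, SE 0.25, adjusted p = 0.00820), Col3a1 (1.501, SE 0.18, adjusted p = 0.00153), Col5a2 (1.26), Col14a1 (1.14) and Col6a3 (0.99), each in log2 units per unit of the index. That of Col6a3 passed in only 5 of the 18 fits without 1 library. Slopes of Col18a1 (-0.20), Col27a1 (-0.16), Col4a1 (-0.14), Col4a2 (-0.11), Col7a1 (-0.07) and Col6a1 (-0.06) were slightly negative and did not pass. All 6 calls rested on KO2 replicate 3 of 6694c2. Without it none passed: the slopes were 0.69 for Col1a1, 0.88 for Col1a2, 0.70 for Col3a1, 0.65 for Col5a2 and 0.74 for Col6a3, while that of Col14a1 was no smaller, at 1.21 (adjusted p = 0.0891). In that fit 1 other collagen, Col28a1, passed with a negative slope (-3.19). Without KO2 replicate 2 the count was 3. The shares of all genes called in these fits are not given here. In KO2 replicate 3 of 6694c2, Col1a1 was 7.99-fold and Col3a1 6.62-fold the mean of the other two (after adding 1 TPM), the summed fibroblast markers were 3.55-fold and the macrophage markers 8.05-fold, while Col18a1 was 0.752-fold, Col4a1 0.735-fold, Col7a1 0.923-fold and the epithelial markers 0.785-fold. Of the 22 tested collagens 11 were over 2-fold higher there, against 5.12% of all genes. In KO1 replicate 1 of 6694c2 the summed fibroblast markers were 1.95-fold the mean of the other libraries of its group. There 1 of the 22 tested collagens was over 2-fold higher, against 3.07% of all genes. Col1a1 was 1.46-fold and Col3a1 1.48-fold in that library, while Col8a1 was 0.484-fold and Col28a1 0.130-fold.

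**Figure D4:**
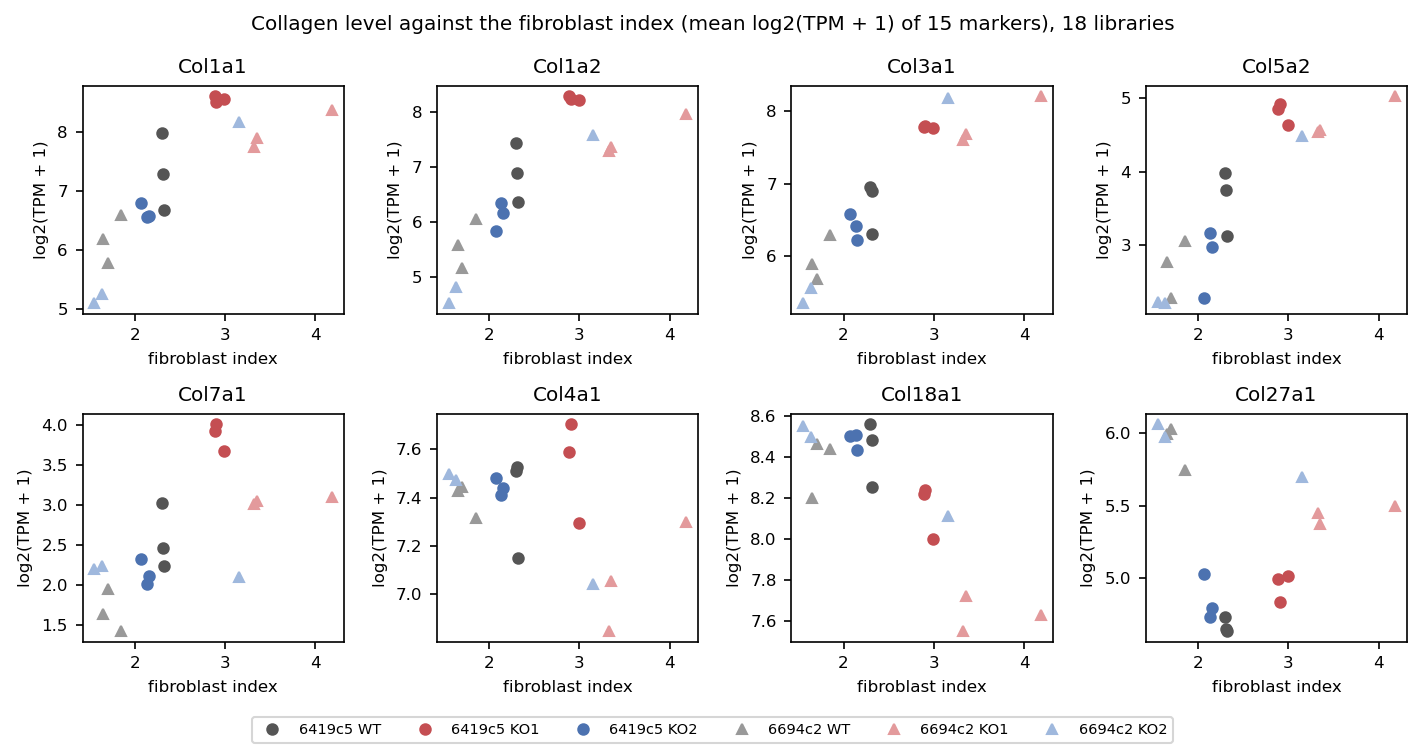
Level of 8 collagens, as log2(TPM + 1), against the fibroblast index in the 18 libraries; circles are 6419c5, triangles 6694c2, and colors are groups. Col1a1, Col1a2, Col3a1 and Col5a2 are higher where the index is higher, Col18a1 is lowest in KO1 of 6694c2, and Col7a1 is highest in KO1 of 6419c5.

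On the endothelial index (12 markers) and the epithelial index (10 markers) no collagen was called. For the endothelial index 1.13% of all genes had a positive and 0.127% a negative slope, and 3 collagens had an unadjusted p under 0.05. For the epithelial index the shares were 0% and 0%, and 2 collagens had an unadjusted p under 0.05. When the fibroblast index was added to the model of group means, the calls in KO1 of 6694c2 went from 14 to 1. The one left was Col7a1 (1.53, limma adjusted p = 0.0408). The share of all genes called in that fit is not given here, so this drop cannot be set against it. In KO1 of 6419c5 the number of calls stayed at 2, with Col7a1 at 1.35 and Col5a1 at 0.68. The index differs between these groups itself, so this fit cannot separate it from the clone, and the part of fibroblasts in the collagen differences was not tested.

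**Figure D5:**
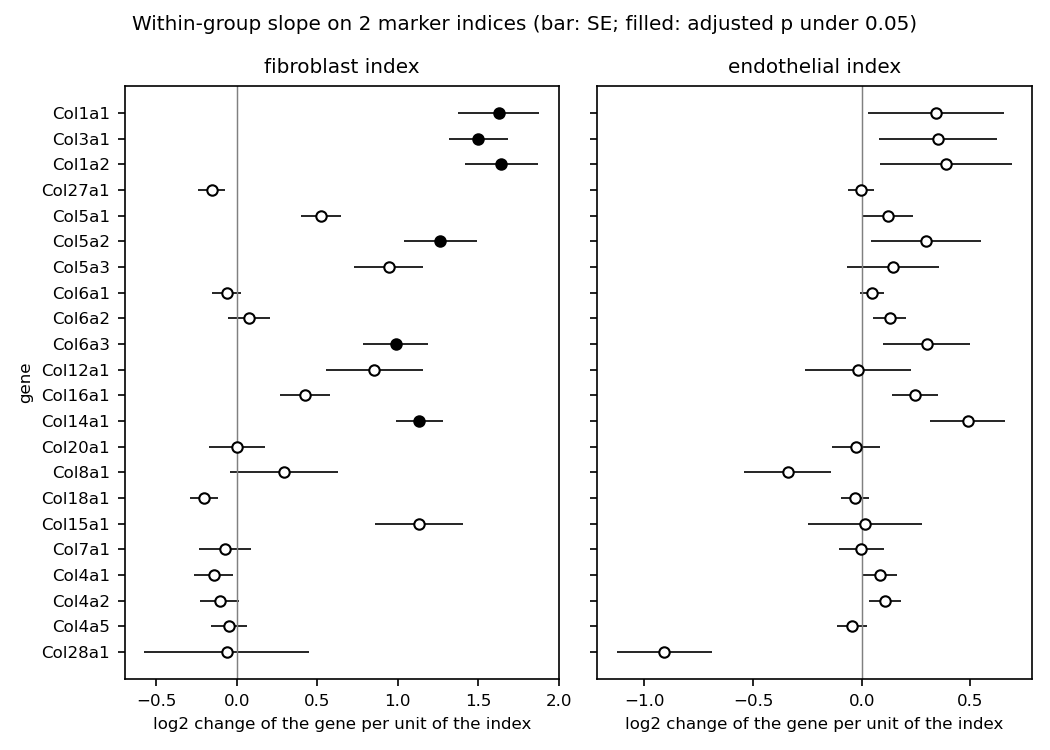
Within-group slope of the 22 tested collagens on the fibroblast index (left) and the endothelial index (right), in log2 units per unit of the index, with standard errors; filled points have an adjusted p under 0.05. The 6 filled points on the left are Col1a1, Col3a1, Col1a2, Col5a2, Col6a3 and Col14a1, and there are none on the right.

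The clones of each line were also set against each other, a comparison added after these values were seen. In 6419c5, KO2 had 10 collagens lower than KO1 and 1 higher, where 18.9% of all genes were lower and 7.38% higher; of all calls 28.0% were higher on the deposited scale, 47.9% after median-of-ratios scaling and 40.9% without the 20 most abundant genes. The largest differences were those of Col1a2 (-2.15, SE 0.58, adjusted p = 0.0127), Col12a1 (-2.07, SE 0.44, adjusted p = 0.00341) and Col5a2 (-2.00, SE 0.47, adjusted p = 0.00640), and Col4a5 was the one that was higher (0.43, SE 0.13, adjusted p = 0.0230). The first 3 calls held in all 18 fits without 1 library, and that of Col4a5 in 13. Fibroblast markers differed the same way, with 5 of 13 tested lower in KO2 and none higher, and macrophage markers with 10 of 10 lower. In 6694c2, KO2 had 4 collagens lower than KO1 (Col12a1, Col5a2, Col15a1 and Col7a1) and 2 higher (Col18a1 and Col27a1), against 4.26% and 5.27% of all genes. Without KO2 replicate 3 there were 15 calls, and without KO1 replicate 2 or 3 or KO2 replicate 1 or 2 there were 2, with the shares of all genes in these fits not given. Col18a1 was higher in KO2 by 0.76 (SE 0.12, adjusted p = 0.00186) and Col7a1 lower by 0.88 (SE 0.19, adjusted p = 0.00997), and both calls held in all 18 fits without 1 library. Fibroblast markers were lower in KO2 than in KO1 here too, 10 of 13 tested, with none higher; their part in these differences was not tested.

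The WT tumors of the lines differed in 6 collagens. Col5a3, Col27a1 and Col4a5 were higher in 6694c2, where 14.1% of all genes were, and Col14a1, Col7a1 and Col16a1 (-0.83, SE 0.22, adjusted p = 0.00685) were lower, where 32.2% of all genes were. The median collagen difference was -0.06 and that of all genes -0.22, or -0.02 after median-of-ratios scaling, when 51.0% instead of 30.5% of all calls were higher. Without KO2 replicate 3 of 6694c2, which is in neither WT group but enters the estimate of the spread, 11 collagens were called. The share of all genes called in that fit is not given here. The knockout effect was tested for a difference between the lines as well: it was larger in 6694c2 for Col16a1 and Col6a1 (5.78% of all genes) and smaller for Col4a5 and Col27a1 (2.93%).

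Enzymes and partners of collagens were described from lists drawn up by function, over both clones of a line. Over all genes the medians were 0.01 in 6419c5 and 0.15 in 6694c2, with 3.97% called higher and 3.4% lower in 6419c5 and 14.7% and 5.79% in 6694c2. Of 12 tested genes for procollagen processing and cross-linking, 5 rose and none fell in 6419c5 (median 0.32), and 5 rose and 1 fell in 6694c2 (median 0.50). In 6419c5 the largest rises were those of Sparc (0.89, SE 0.15, adjusted p = 0.00160), a matrix protein that binds collagen, and of the cross-linking lysyl oxidases Loxl3 (0.69) and Loxl2 (0.52). Loxl2 was also the gene that fell in 6694c2, by 0.38 (SE 0.10, adjusted p = 0.0137). The largest rises in 6694c2 were those of the procollagen peptidase Adamts2 (0.98, SE 0.26, adjusted p = 0.0167), the protease Tll1 (0.97) and Sparc (0.69, SE 0.15, adjusted p = 0.00542). Sparc held 257 ± 27.4 TPM in WT, 434 ± 58.7 in KO1 and 525 ± 41.8 in KO2 of 6419c5. It rose in KO2 of 6419c5 by 1.03 (SE 0.17, adjusted p = 9.23e-04), where no collagen was called higher. The call of Loxl3 was lost without 6419c5 WT replicate 3, that of Loxl2 in 6694c2 without 6694c2 WT replicate 3 and that of Adamts2 without 6694c2 WT replicate 2.

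Of 19 tested genes for collagen synthesis, 3 rose and 1 fell in 6419c5 and 5 rose and 4 fell in 6694c2 (medians 0.07 and 0.04), where 3.97% and 3.4% of all genes did in 6419c5 and 14.7% and 5.79% in 6694c2. Those that rose in 6419c5 were P3h4 (0.39), a partner of the prolyl and lysyl hydroxylases, the chaperone Fkbp10 (0.38) and the prolyl hydroxylase subunit P4ha3 (0.38). All of these calls were lost without 6419c5 WT replicate 3 and after median-of-ratios scaling (0.37, 0.37 and 0.37 in the same order); over all 18 fits without 1 library they held in 11 for P3h4, 17 for Fkbp10 and 12 for P4ha3. In 6694c2 Fkbp10 fell, by 0.66 (SE 0.09, adjusted p = 9.73e-05). The largest differences there were those of the transcription factor Creb3l1 (1.05, SE 0.19, adjusted p = 0.00156), the prolyl 3-hydroxylase P3h2 (0.94) and Serpinh1, the collagen chaperone HSP47, which fell by 0.67 (SE 0.12, adjusted p = 0.00102). Serpinh1 went from 315 ± 20.6 TPM in WT to 207 ± 8.49 in KO1 and 187 ± 5.61 in KO2 of 6694c2, while Col1a1 rose in KO1.

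Of 10 tested genes for collagen degradation, none was called in 6419c5, and in 6694c2 3 rose and 1 fell (medians 0.18 and 0.70), against 14.7% and 5.79% of all genes there. They were led by the gelatinase Mmp9 (1.81, SE 0.30, adjusted p = 7.27e-04), the collagen-cleaving cathepsin Ctsk (1.52) and the neutrophil collagenase Mmp8 (0.76), enzymes that myeloid cells are known to make. The call of Mmp8 was lost without 6694c2 WT replicate 1 and with a pseudocount of 0.1 (adjusted p = 0.124). Macrophage markers summed to 137 to 1720.1 TPM in WT of 6694c2, 3256 to 6187 in KO1 and 417 to 3398 in KO2, and their part in these rises was not tested.

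Of 7 tested collagen receptors, none was called in 6419c5, and in 6694c2 3 rose and 1 fell (medians 0.14 and 0.03), against 14.7% and 5.79% of all genes there. The rises were led by Ddr2, a receptor kinase for fibrillar collagen (1.71, SE 0.26, adjusted p = 3.07e-04), and the leukocyte receptor Lair1 (1.69). The epithelial integrin chain Itga2 fell by 0.96 (adjusted p = 0.00106). Of 12 small proteoglycans and basement membrane partners, Hspg2, the basement membrane proteoglycan perlecan, was the only one called in 6419c5 (0.51, SE 0.15, adjusted p = 0.0489); the call held in 4 of the 18 fits without 1 library and under neither rescaling. In 6694c2 2 rose, Dcn (2.07, SE 0.33, adjusted p = 5.40e-04) and Lum (1.19), both of which are also in the fibroblast list, and 3 fell, led by the basement membrane linker Nid1 (-1.02, adjusted p = 2.78e-04). The 2 rises of 12 are near the share of all genes that rose in 6694c2, 14.7%, while 5.79% fell. The medians were 0.21 and 0.25, and the call of Lum held in 14 of the 18 fits and was lost with a pseudocount of 0.1 (adjusted p = 0.0572). With the fibroblast index as a covariate, the calls in 6694c2 held for Creb3l1, Fkbp10, Serpinh1 and Nid1, and for none of the other 13 genes of these lists named in that line. Dcn and Lum are themselves part of that index, so the loss of their calls was largely set in advance. The index also differs between the groups, so this fit cannot separate it from the clones. The share of all genes that kept their calls in it is not given here.

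Promoter sequences are shown for 3 members with different patterns: Col3a1, which had a positive slope on the fibroblast index, Col7a1, which rose in KO1 of both lines, and Col27a1, which differed between the lines. Each line gives the 250 bases before the RefSeq transcript start on build GRCm38.p6, all on the plus strand. The windows lie at chr1:45311288-45311537, chr9:108953336-108953585 and chr4:63215162-63215411, and none holds an annotated exon. That of Col27a1 lies inside the GENCODE M21 span of its gene, which begins at 63214004. Capitals mark matches to the CCAAT box, the TATAAA element and the GGGCGG box on either strand, and no match in them overlaps another.
Col3a1: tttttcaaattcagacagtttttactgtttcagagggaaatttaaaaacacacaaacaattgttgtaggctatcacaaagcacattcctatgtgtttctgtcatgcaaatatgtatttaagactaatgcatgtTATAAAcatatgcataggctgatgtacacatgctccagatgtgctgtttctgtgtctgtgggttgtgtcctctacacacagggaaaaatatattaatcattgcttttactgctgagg
Col7a1: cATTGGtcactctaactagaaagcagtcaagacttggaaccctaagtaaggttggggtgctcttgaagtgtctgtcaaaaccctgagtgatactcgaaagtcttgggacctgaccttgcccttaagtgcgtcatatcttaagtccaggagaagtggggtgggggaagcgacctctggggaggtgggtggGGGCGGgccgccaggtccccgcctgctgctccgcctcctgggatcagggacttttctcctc
Col27a1: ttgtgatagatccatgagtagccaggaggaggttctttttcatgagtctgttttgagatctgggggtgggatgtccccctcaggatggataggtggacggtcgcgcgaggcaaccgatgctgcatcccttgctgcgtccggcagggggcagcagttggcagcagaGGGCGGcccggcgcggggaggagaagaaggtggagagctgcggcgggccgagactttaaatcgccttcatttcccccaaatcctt
The Col3a1 window holds 1 TATAAA and is 35.2% G or C. Col7a1 (56.4% G or C) holds 1 CCAAT box, read on the minus strand, and 1 GGGCGG, and Col27a1 (59.6% G or C) holds 1 GGGCGG. Windows were found for 25 of the 30 collagens, of which 9 held the CCAAT box, 4 the TATAAA element and 15 the GGGCGG box, against 33.8%, 12.4% and 32.7% of all 32851 promoter windows of this length. A match is only a run of letters, and binding was not measured here.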

How the data were processed

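The deposited table holds TPM for 24493 gene symbols in 18 libraries; the values were made by the authors with Salmon (version not given) and build mm10, per the submitters' processing notes. Its name mentions a batch that no label describes, so whether values were adjusted between batches is unknown. Clone letters A and B of the columns were read as KO1 and KO2 of the titles. Genes averaging 1 TPM or more (13422) were analysed as log2(TPM + 1), with a pseudocount of 1, so folds of low genes are understated. One limma 3.58.1 model (R 4.3.3) of 6 group means with a trended prior gave all contrasts; slopes added 1 marker index. It was tested on simulated data. No count model was fitted, and no depth, interval or detection limit can be given. Alternatives were a pseudocount of 0.1, a filter of 1 TPM in any library, 2 rescalings, a replicate block, each library left out, 3 libraries left out together, and the fibroblast index as a covariate.

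Collagens and gene lists (23 lists, 191 genes, all in the table) were chosen with earlier results of these data known. Members with full values are the most abundant of each class, those with the largest called rises and falls per line (up to 4 each way), and up to 3 from the interaction and the WT comparison; other lists give up to 3 called genes per line. Positions are from GENCODE M21 (GRCm38), promoters from RefSeq (GRCm38.p6).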

Additional observations from a re-analysis of the deposited data

Results flagged for a closer look

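The effect of the knockout differed between the lines, by a test of that difference over all 13422 genes, for 4 collagens. Col16a1 had a difference of 1.002 (SE 0.27, limma adjusted p = 0.0346) between 6694c2 and 6419c5, with an effect of 0.97 in 6694c2 and -0.03 in 6419c5, where KO1 and KO2 went opposite ways (0.71 and -0.78). Col6a1 had a difference of 0.49 (SE 0.13, limma adjusted p = 0.0294), from effects of 0.34 and -0.15. Col4a5 had a difference of -0.65 (SE 0.16, limma adjusted p = 0.0193), from effects of -0.57 and 0.08. Col27a1 had a difference of -0.48 (SE 0.13, limma adjusted p = 0.0401), from effects of -0.25 and 0.23, neither of which passed alone.

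Over the 18 fits without 1 library the differences ranged from 0.89 to 1.20 for Col16a1, 0.39 to 0.55 for Col6a1, -0.76 to -0.52 for Col4a5 and -0.56 to -0.42 for Col27a1, and the calls held in 11, 13, 17 and 7 of these fits. Col16a1 lost its call without 6419c5 WT replicate 1 or 2, KO1 replicate 1 or KO2 replicate 1 or 3, or 6694c2 WT replicate 1 or 3. Col6a1 lost it without WT replicate 2 of either line, 6694c2 WT replicate 3 or 6694c2 KO2 replicate 1 or 2. Col4a5 lost it without 6419c5 WT replicate 3 (-0.56). After median-of-ratios scaling the differences were 0.84, 0.30, -0.83 and -0.66, in the same order, and the calls of Col16a1 (adjusted p = 0.0631) and Col6a1 (adjusted p = 0.264) were lost; that of Col6a1 was also lost without the 20 most abundant genes (0.40). Of all genes called 38.3% instead of 66.4% had a positive difference after median-of-ratios scaling, and 54.6% without the 20 most abundant genes. With the first scaling the median of all genes moved from 0.14 to -0.03.

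Of the 21 enzymes and partners named, 4 were higher and 6 lower in the difference between the lines, where 5.78% and 2.93% of all genes were. These genes were chosen for their calls within a line, and the effect in each line is part of this difference. Their count was therefore raised in advance and cannot be compared with the shares of all genes. The difference, 6694c2 minus 6419c5, was 2.41 (adjusted p = 0.00310) for Mmp9, 1.63 (adjusted p = 0.0450) for Dcn, 1.49 (adjusted p = 0.00688) for Tll1 and 1.46 (adjusted p = 0.00452) for Creb3l1. It was -1.32 (adjusted p = 0.00181) for Nid1, -1.05 (adjusted p = 1.38e-04) for Fkbp10, -0.90 (adjusted p = 0.00127) for Loxl2, -0.83 (adjusted p = 0.0422) for Itga2, -0.81 (adjusted p = 0.00809) for Serpinh1 and -0.55 (adjusted p = 0.0308) for P3h4, all from limma. Loxl2 and Fkbp10 passed in both lines with opposite signs. The calls of Mmp9, Tll1, Creb3l1, Nid1, Fkbp10, Loxl2 and Serpinh1 held in all 18 fits without 1 library, that of P3h4 in 9, that of Itga2 in 6 and that of Dcn in 4.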

How the results depend on the processing

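The counts in this section are of collagens, and the share of all genes called under each setting is not given. A pseudocount of 0.1 left each of the 13 counts of calls as it was. The wider filter gave 4 collagens on the endothelial index. Of these, Col4a3, Col4a4 and Col13a1 entered it only through 6694c2 KO1 replicate 1, the library with the high endothelial markers. Their slopes were set by that filter. The remaining call was of a collagen of the main fit, where none was called on this index (smallest limma adjusted p = 0.0693). The wider filter also called Col8a2 (6419c5 KO1 against WT and against KO2, and between WT groups), Col10a1 (between the clones of 6419c5) and Col23a1 (fibroblast index). Each reached 1 TPM in few libraries, those where it was highest, so these calls were shaped by that filter too. Median-of-ratios scaling gave 2 calls in 6694c2 KO2, 2 in the difference between lines and 1 on the epithelial index, and removing the 20 most abundant genes gave 2 in 6694c2 KO2. Without the 3 libraries 6419c5 WT replicate 3, 6694c2 KO1 replicate 1 and 6694c2 KO2 replicate 3, the counts were 8 in 6419c5 KO1, 8 in 6419c5 KO2, 9 in 6694c2 KO2, 12 between WT groups, 16 between the clones of 6694c2 and 0 on the fibroblast index, and Col1a2 in 6694c2 KO2 was -0.93. With the fibroblast index as a covariate they were 1 in 6419c5, 1 in 6694c2, 1 in 6694c2 KO1, 7 in 6694c2 KO2, 0 in the difference between lines, 5 between the clones of 6419c5 and 0 between those of 6694c2. That fit turned the sign of Col14a1 in 6694c2 (-0.22) and, in its KO1, of Col14a1 (-0.45), Col1a1 (-1.25), Col1a2 (-1.15), Col3a1 (-0.96), Col5a1 (-0.27), Col5a2 (-0.37) and Col6a3 (-0.72), none past the test, and between its clones of Col15a1 (0.015) and Col5a2 (0.17). Without 6694c2 KO1 replicate 1 the fibroblast slope of Col28a1 was 0.92, and without 6694c2 KO2 replicate 3 it was -3.19.

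Leaving out 1 library gave 0 to 1 calls in 6419c5, 3 to 11 in 6694c2, 1 to 9 and 1 to 4 in KO1 and KO2 of 6419c5, 8 to 16 and 3 to 8 in those of 6694c2, 1 to 5 in the difference between lines, 4 to 11 between WT groups, 9 to 15 and 2 to 15 between the clones of 6419c5 and 6694c2, 1 to 8, 0 to 1 and 0 to 0 on the fibroblast, endothelial and epithelial index. In the difference between lines 2 remained without any 1 WT library of 6419c5, its KO2 replicate 1, 6694c2 WT replicate 2 or 6694c2 KO2 replicate 1, and 1 without 6694c2 WT replicate 3. Deviations of same-numbered libraries correlated at -0.378 to 0.481 (median -0.063) and those of other-numbered ones at -0.385 to 0.473 (median 0.053). No pairing by number was seen, which does not exclude a shared batch. With the replicate block there were 7 calls in 6694c2, 12 in its KO1, 3 in the difference between lines and 4 on the fibroblast index. Depth is unknown, so levels near 1 TPM carry an unknown counting error.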
